A study of Mus musculus with 10 samples.

Results

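The 10 genes described here encode enzymes that attach glutathione to reactive molecules or open epoxides by adding water: the glutathione transferases Gsta3, Gsta4, Gstm1, Gstm2, Gstm5, Gstp1, Gstt1, Gsto1 and the membrane-bound Mgst1, and the microsomal epoxide hydrolase Ephx1. They were chosen with earlier results of these data known. Counts of calls among them therefore describe these genes and are no independent support for an effect on the family. Every probe set that the array annotation assigns to one of them alone was used, which gave 16 probe sets for 10 genes of the 18193 genes with a probe set of their own. No probe set was shared between a member and another gene. The cells were CGR8 mouse embryonic stem (ES) cells of strain SV129, 1 established line, and total RNA was measured on 10 Affymetrix arrays. In ES cells, 3 arrays came from cultures given 1 mM EBIO for 3 days and 3 from untreated cultures, with passages 25, 26 and 27 in both groups. In differentiated cells, 2 arrays came from cells kept 5 days as embryoid bodies and then 10 days with EBIO, and 2 from cells cultured for the same time without it. The labels give no dose for the differentiated cells. EBIO is a small organic compound that opens the SK and IK potassium channels, which are gated by calcium. The arrays of a group were independent experiments, per the series' design text.

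Cytosolic glutathione transferases are grouped by sequence into classes named with Greek letters, and most of them join the thiol of glutathione to electrophiles such as epoxides and unsaturated aldehydes, after which the conjugate is pumped out of the cell. Microsomal epoxide hydrolase works beside them and turns epoxides made by cytochromes P450 into diols. Many of these genes are known to be induced by the transcription factor NRF2, which binds antioxidant response elements, and some by the aryl hydrocarbon receptor, which binds xenobiotic response elements; both kinds of element have short core sequences.

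Promoters are shown for Gstm2 and Ephx1, which had large EBIO differences, and for Gsta3, Gstm1, Gstm5 and Mgst1, 4 of the 5 genes in which one of these cores was found (that of Gstp1 is not shown). RefSeq promoters (build GRCm38.p6) were at hand for 9 of the 10 genes, 11 promoters in all, and the 250 bases before each start were read. Each is written 5′ to 3′ on the strand of its gene, and capitals mark the antioxidant core TGACNNNGC or the xenobiotic core GCGTG, searched on both strands.
Gsta3, chr1:21240335-21240584, plus strand: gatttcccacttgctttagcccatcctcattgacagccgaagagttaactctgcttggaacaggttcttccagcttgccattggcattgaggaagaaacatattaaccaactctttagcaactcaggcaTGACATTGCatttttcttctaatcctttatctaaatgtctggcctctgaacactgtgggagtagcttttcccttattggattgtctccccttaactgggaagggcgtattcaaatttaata
Gstm1, chr3:108017974-108018223, minus strand: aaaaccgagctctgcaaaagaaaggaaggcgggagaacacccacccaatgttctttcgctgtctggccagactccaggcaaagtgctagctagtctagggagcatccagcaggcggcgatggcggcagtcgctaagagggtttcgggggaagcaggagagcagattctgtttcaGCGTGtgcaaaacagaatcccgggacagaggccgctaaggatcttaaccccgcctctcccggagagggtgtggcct
Gstm2, chr3:107986421-107986670, minus strand: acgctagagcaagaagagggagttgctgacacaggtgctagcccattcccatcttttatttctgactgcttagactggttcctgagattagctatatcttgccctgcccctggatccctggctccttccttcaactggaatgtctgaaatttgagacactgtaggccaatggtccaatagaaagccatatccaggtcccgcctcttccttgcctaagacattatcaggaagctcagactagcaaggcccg
Gstm5, chr3:107895604-107895853, plus strand: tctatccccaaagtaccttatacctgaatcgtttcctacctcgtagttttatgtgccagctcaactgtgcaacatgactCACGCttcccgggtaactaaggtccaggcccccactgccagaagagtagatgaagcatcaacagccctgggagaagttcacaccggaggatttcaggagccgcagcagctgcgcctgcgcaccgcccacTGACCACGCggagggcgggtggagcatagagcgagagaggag
Mgst1, chr6:138140277-138140526, plus strand: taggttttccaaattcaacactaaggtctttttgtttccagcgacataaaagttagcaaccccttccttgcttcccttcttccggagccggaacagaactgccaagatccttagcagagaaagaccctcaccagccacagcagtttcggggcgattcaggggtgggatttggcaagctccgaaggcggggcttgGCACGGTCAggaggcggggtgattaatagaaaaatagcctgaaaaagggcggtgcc
Ephx1, chr1:181017570-181017819, minus strand: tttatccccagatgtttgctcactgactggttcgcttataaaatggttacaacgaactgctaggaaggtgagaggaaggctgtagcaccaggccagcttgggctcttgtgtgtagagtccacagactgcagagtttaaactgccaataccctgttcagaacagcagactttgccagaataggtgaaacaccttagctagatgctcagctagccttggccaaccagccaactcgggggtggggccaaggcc

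The antioxidant core occurred in 3 of the 11 member promoters, of the genes Gsta3, Gstm5 and Mgst1, and in 10.2% of 32817 promoters of the same length. That larger set left out the promoters of a whole chromosome. The xenobiotic core occurred in 4 of the 11 member promoters, of the genes Gstm1, Gstm5 and Gstp1, and in 28.1% of the larger set. In Gstm5 it was found at 2 places, one of them inside the antioxidant core. Neither core was found in the windows of Gstm2 and Ephx1. These matches describe the letters in the windows only.

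Of the members that lay above the array median on every array of a stage, 4 of 6 were lower with EBIO in ES cells and 6 of 7 in differentiated cells. Among all tested genes, a set with a looser filter, 20.5% and 31.8% were called lower at these stages. The share among all genes above the median on every array was not computed. In ES cells the mu class gene Gstm2 (6.25-fold lower), the alpha class gene Gsta4 (5.58-fold lower) and Gstm1 (3.68-fold lower) had the largest differences among tested members. In differentiated cells Ephx1 was 15.9-fold lower and Mgst1 6.98-fold lower, both above the median with and without EBIO. The measured folds of Gsta3 (16.4-fold lower) and Gstm2 (16.2-fold lower) are understated, because both were below the array median with EBIO, and they cannot be ranked against that of Ephx1. Gsta4 was 1.33-fold lower there. No member was called higher at either stage.

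A probe set was tested where enough arrays (no fewer than the smaller group) had it above their median, and was called at a Benjamini-Hochberg adjusted p below 0.05 from limma over all probe sets tested. In ES cells 13 of the 16 probe sets were tested and 10 were called lower with EBIO, where 17.6% of all tested probe sets were called lower. With each gene represented by its brightest probe set, 7 of 9 tested members were called lower, against 20.5% of all tested genes called lower and 22.8% called higher. The median difference over the 9 members was -0.76 (log2), against -0.04 over all tested genes; over the 6 that were above the median on every array it was -1.36. Gsta3 and Gstt1 passed the filter through the untreated arrays alone and Ephx1 had only 1 EBIO array above the median, so their calls add no support. Of the other 6 tested members, 4 were lower (Gsta4, Gstm1, Gstm2 and Gstp1), while Gstm5 and Gsto1 were not called.

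In differentiated cells 14 of the 16 probe sets were tested and 13 were called lower, against 27.5% of all tested probe sets. By gene, 9 of 10 members were called lower, against 31.8% of all tested genes called lower and 31.9% called higher. The median difference over the members was -2.11 (log2), against 0.02 over all tested genes. Gsta3, Gstm2 and Gstt1 passed the filter through the untreated arrays alone, so their calls add no support. Over the other 7 the median was -1.26, which in turn leaves out members that were low with EBIO. Of the other 7 members 6 were lower, all but Gstp1.

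**Figure D1:**
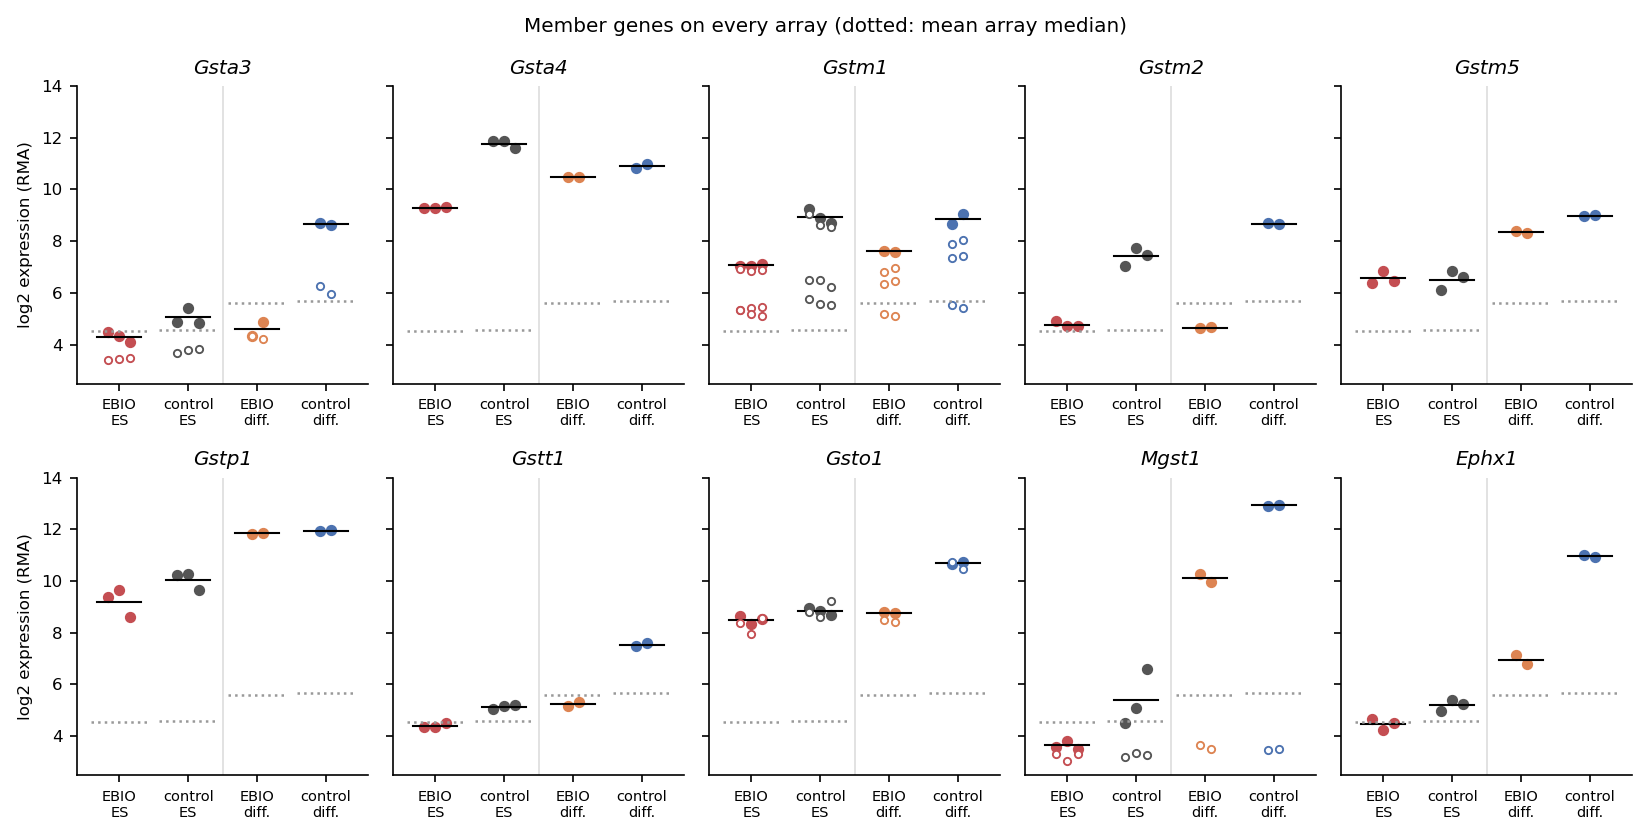
Log2 expression (RMA, vertical axis) of each member gene on each array, with EBIO left of its untreated control in ES cells and in differentiated (diff.) cells. Filled points are the brightest probe set and black lines its group mean, open points are the gene's other probe sets, and dotted lines mark the mean array median of the group; the 2 stages were normalized separately, so heights are comparable only within a stage. In ES cells Gsta4 separated between 9.27 to 9.33 with EBIO and 11.59 to 11.88 without, and in differentiated cells Ephx1 separated between 6.79 to 7.14 and 10.91 to 11.00.

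The RNA levels of cell type markers in the cultures differed too. In differentiated cells all 8 heart muscle markers were higher with EBIO (their mean level was 13.2 on both EBIO arrays and 9.19 to 9.30 on the untreated arrays), while all 8 fibroblast markers, all 9 macrophage markers, the 4 tested endothelial markers, all 5 markers of simple epithelium and all 7 of liver and endoderm were lower. Some of the lower markers had no EBIO array above the median: all 9 macrophage, 3 endothelial, 3 liver and endoderm and 2 fibroblast markers. These passed the filter through the untreated arrays alone, so their calls add no support. The macrophage markers averaged 4.35 to 4.47 with EBIO, none of them above the array median on both arrays, against 10.7 to 11.0 without. The liver and endoderm markers averaged 5.51 to 5.58 with EBIO and 8.88 to 9.09 without, and the fibroblast markers 7.12 to 7.18 with EBIO and 11.9 without. In ES cells all 6 pluripotency markers were lower with EBIO (mean level 8.22 to 8.71, against 10.97 to 11.27 in untreated cells), though all 6 stayed above the array median. At this stage 3 of 5 epithelial markers were higher and 1 lower, 2 of 4 tested endothelial and 2 of 4 tested heart muscle markers were lower (1 heart muscle marker was higher), 1 of 4 tested macrophage markers was lower, the 1 tested fibroblast marker was not called, and 0 of 5 tested liver and endoderm markers were called (liver and endoderm mean level 4.56 to 4.65 with EBIO, against 4.58 to 4.76 without). Here 1 of the lower endothelial markers had no EBIO array above the median, and the higher heart muscle marker had no untreated array above it. In such bulk samples fewer cells of a type and less RNA per cell cannot be told apart, and the part of these markers in the results below was not tested. The signal of Actb probe sets at the 3′ end exceeded that at the 5′ end, a larger excess being a sign of less intact RNA, by 0.14 ± 0.06 (log2) with EBIO and 0.42 ± 0.09 in untreated ES cells (SD, n = 3 each), with no overlap. In differentiated cells it was 0.46 ± 0.02 with EBIO and 0.43 ± 0.04 without (n = 2 each). For Gapdh the same difference was 0.02 ± 0.02 with EBIO and -0.01 ± 0.07 in untreated ES cells. The part of either in the ES results was not tested.

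The alpha class was represented by Gsta3 and Gsta4. Gsta4 is best known for conjugating 4-hydroxynonenal, an aldehyde from oxidised lipids. In ES cells its log2 values (probe set 1416368_at) were 9.28, 9.27 and 9.33 with EBIO, against 11.88, 11.86 and 11.59 in untreated cells. The groups lay far apart, with little spread inside each. The difference of -2.48 (SE 0.13) had a limma adjusted p of 5.95e-06. In differentiated cells the values were 10.49 and 10.50 with EBIO, against 10.85 and 10.97 without. The groups again did not overlap, but the difference was only -0.41 (SE 0.08, adjusted p = 0.0064).

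Gsta3, which in mice has high activity toward the epoxide of aflatoxin B1, had its larger difference in differentiated cells. In ES cells its values (probe set 1423436_at) were 4.49, 4.32 and 4.09 with EBIO, against 4.89, 5.44 and 4.85 in untreated cells. These values lay near the array median of 4.52 to 4.62, all EBIO values below it, so the difference of -0.76 (SE 0.19, adjusted p = 0.0131) came from a dim probe set. In differentiated cells the values were 4.34 and 4.89 with EBIO, against 8.70 and 8.61 without. The EBIO arrays were below the array median of 5.59 to 5.62, while the untreated arrays were near the 80.1 percentile of their probe sets. The difference was -4.04 (SE 0.18, adjusted p = 2.63e-05), and since RMA compresses the low end of the scale, a difference from so dim a level is understated. The second Gsta3 probe set, 1423437_at, averaged 4.29 with EBIO and 6.11 without in differentiated cells, a difference of -1.81 (adjusted p = 0.000106). In ES cells it was below the median on every array and was not tested.

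The mu class was represented by Gstm1, Gstm2 and Gstm5, which lie in a cluster on chromosome 3. Gstm2 was low with EBIO at both stages. Its values (probe set 1416411_at) were 4.90, 4.70 and 4.72 in EBIO-treated ES cells, against 7.06, 7.73 and 7.47 in untreated ES cells. The difference was -2.64 (SE 0.18, adjusted p = 2.00e-05). In differentiated cells the values were 4.63 and 4.69 with EBIO, against 8.71 and 8.65 without. With EBIO the probe set lay just above the array median in ES cells and below it in differentiated cells. The difference at the differentiated stage was -4.02 (SE 0.08, adjusted p = 2.84e-06).

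Gstm1, a major mu class enzyme of mouse liver, had 4 probe sets. The brightest, 1416416_x_at, gave 7.04, 7.06 and 7.11 in EBIO-treated ES cells, against 9.23, 8.91 and 8.71 in untreated ES cells. It gave 7.63 and 7.57 in EBIO-treated differentiated cells, against 8.65 and 9.07 in untreated ones. Neither pair of groups overlapped, and the differences were -1.88 (SE 0.15, adjusted p = 4.59e-05) in ES cells and -1.26 (SE 0.14, adjusted p = 0.000797) in differentiated cells. The suffix x marks probe sets with probes that can match related transcripts, which matters in a family as similar as the mu class. A probe set without that suffix, 1448330_at, differed by -1.86 in ES cells and -1.57 in differentiated cells. The dimmer 1425627_x_at differed by -1.03 and -0.51 at the same stages, each past the threshold. The dimmest, 1425626_at, differed by -0.41 in ES cells (adjusted p = 0.0360) and was below the median on all differentiated arrays.

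Gstm5, known in mice for expression in brain and testis, was the mu class member with no call in ES cells. Its values (probe set 1416842_at) were 6.40, 6.87 and 6.46 with EBIO, against 6.10, 6.84 and 6.62 in untreated ES cells, and the groups overlapped. The difference was 0.06 with a 95% interval of -0.44 to 0.55 (adjusted p = 0.864), so changes within that interval in either direction are not excluded. In differentiated cells the values were 8.41 and 8.31 with EBIO, against 8.97 and 9.00 without, a difference of -0.63 (SE 0.08, adjusted p = 0.00108).

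The chromosomal order of the mu class genes in the RefSeq table was Gstm5, Gstm7, Gstm6, Gstm3, Gstm2, Gstm1 and Gstm4, with 0 other protein-coding genes among these 7. The genes called lower in ES cells were the neighbours Gstm3, Gstm2 and Gstm1. Gstm3 averaged 5.37 with EBIO and 6.93 without, a difference of -1.56 (SE 0.13, adjusted p = 5.75e-05). The genes on either side were not called in ES cells, with differences of -0.13 for Gstm7 (adjusted p = 0.421) and -0.01 for Gstm4 (adjusted p = 0.945). Gstm6, next to Gstm3, was too dim to be tested, with means of 4.16 with EBIO and 4.74 without. In differentiated cells Gstm3 was lower by a smaller amount (-0.44, adjusted p = 0.00464; differentiated minus ES effect 1.12, adjusted p = 0.000458), and Gstm7 (0.09, adjusted p = 0.438) and Gstm4 (-0.00, adjusted p = 0.984) were not called. The probe set used for Gstm3, 1427474_s_at, is also of a kind that can match more than 1 transcript. A dimmer Gstm3 probe set without that suffix, 1427473_at, averaged 4.31 with EBIO and 4.81 without in ES cells. Its difference there was only -0.50 (adjusted p = 0.0251), and it was not tested in differentiated cells. That Gstm4 was measured near 7.11 with EBIO and 7.12 without in differentiated cells shows that the large difference of Gstm2 was not shared along the whole cluster.

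**Figure D2:**
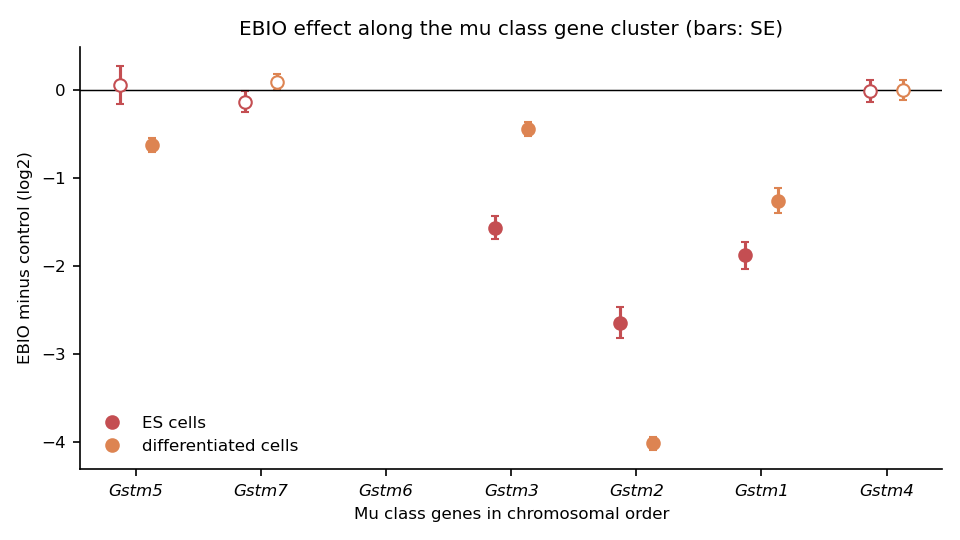
EBIO minus control on the log2 scale (vertical axis, bars are SE) for the mu class genes in chromosomal order (horizontal axis, not to scale), in ES cells and in differentiated cells. Filled points passed the adjusted p threshold and open points did not; Gstm6 was not tested. The lowest points at both stages are those of Gstm2, at -2.64 and -4.02, while Gstm7 and Gstm4 lie near 0.

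The pi, theta and omega classes had 1 member each. Gstp1, the pi class enzyme, is abundant in many dividing cells and also binds the kinase JNK. Its values (probe set 1449575_a_at) were 9.38, 9.63 and 8.60 in EBIO-treated ES cells, against 10.22, 10.25 and 9.65 in untreated ES cells. The groups just failed to overlap, with the highest EBIO value close to the lowest untreated one. The difference was -0.83 (SE 0.28, adjusted p = 0.0440), and it lost its call when any of 4 arrays was left out (untreated ES replicate 1 or 2, EBIO-treated ES replicate 1 or 3), with adjusted p-values of 0.123, 0.150, 0.0740 and 0.108 in that order. Without a filter on dim probe sets the adjusted p was 0.0952. These fits ignore the passages: with the replicate block, which pairs the ES arrays by passage, the adjusted p was 0.00104. In differentiated cells Gstp1 was at 11.83 and 11.85 with EBIO, against 11.93 and 11.97 without. The difference of -0.11 was not called (adjusted p = 0.241), and its 95% interval of -0.29 to 0.07 leaves room only for small changes.

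Gstt1, a theta class enzyme that acts on small halogenated compounds, gave 4.36, 4.35 and 4.52 (probe set 1418186_at) in EBIO-treated ES cells, against 5.04, 5.18 and 5.20 in untreated ES cells. The EBIO values were below the array median, and the difference was -0.73 (SE 0.12, adjusted p = 0.00174). In differentiated cells it gave 5.16 and 5.32 with EBIO, against 7.47 and 7.60 without, a difference of -2.30 (SE 0.09, adjusted p = 1.84e-05). Here too only the untreated arrays were above the median.

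Gsto1, an omega class enzyme with thioltransferase and dehydroascorbate reductase activity, was not called in ES cells. Its values (probe set 1416531_at) were 8.66, 8.35 and 8.52 with EBIO, against 8.97, 8.83 and 8.69 in untreated ES cells, a difference of -0.32 (SE 0.14, adjusted p = 0.102). The values did not overlap, and the second probe set, 1456036_x_at, differed by -0.56 (adjusted p = 0.0683). The call depended on how the probe sets were used, since the mean of both differed by -0.44 with an adjusted p of 0.0291. In differentiated cells the brightest probe set gave 8.80 and 8.75 with EBIO, against 10.64 and 10.75 without. The difference of -1.92 (SE 0.08, adjusted p = 2.05e-05) was matched by -2.14 in the second probe set.

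The membrane-bound members were Mgst1 and Ephx1, which both sit in the endoplasmic reticulum. Mgst1, a transferase that also reduces lipid hydroperoxides, was dim in ES cells. It gave 3.60, 3.80 and 3.52 (probe set 1415897_a_at) with EBIO, against 4.52, 5.10 and 6.59 in untreated ES cells. Untreated replicate 3 stood above the other untreated arrays, only 2 arrays were above the median, and the gene was not tested. Without a filter on dim probe sets its difference of -1.76 had an adjusted p of 0.0400, but no EBIO array was above the median. In differentiated cells Mgst1 gave 10.28 and 9.96 with EBIO, against 12.90 and 12.94 without, a difference of -2.80 (SE 0.12, adjusted p = 2.24e-05). On untreated differentiated arrays it was near the 99.3 percentile of all probe sets. The second Mgst1 probe set, 1415898_at, lay between 3.04 and 3.67 on all 10 arrays and was not tested.

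Ephx1 gave 4.68, 4.25 and 4.50 (probe set 1422438_at) in EBIO-treated ES cells, against 4.96, 5.39 and 5.24 in untreated ES cells. The difference was -0.72 (SE 0.16, adjusted p = 0.00869), close to the array median. In differentiated cells it gave 7.14 and 6.79 with EBIO, against 11.00 and 10.91 without, and both groups were above the median. The difference of -3.99 (SE 0.13, adjusted p = 9.06e-06) was thus measured away from the dim end of the scale.

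**Figure D3:**
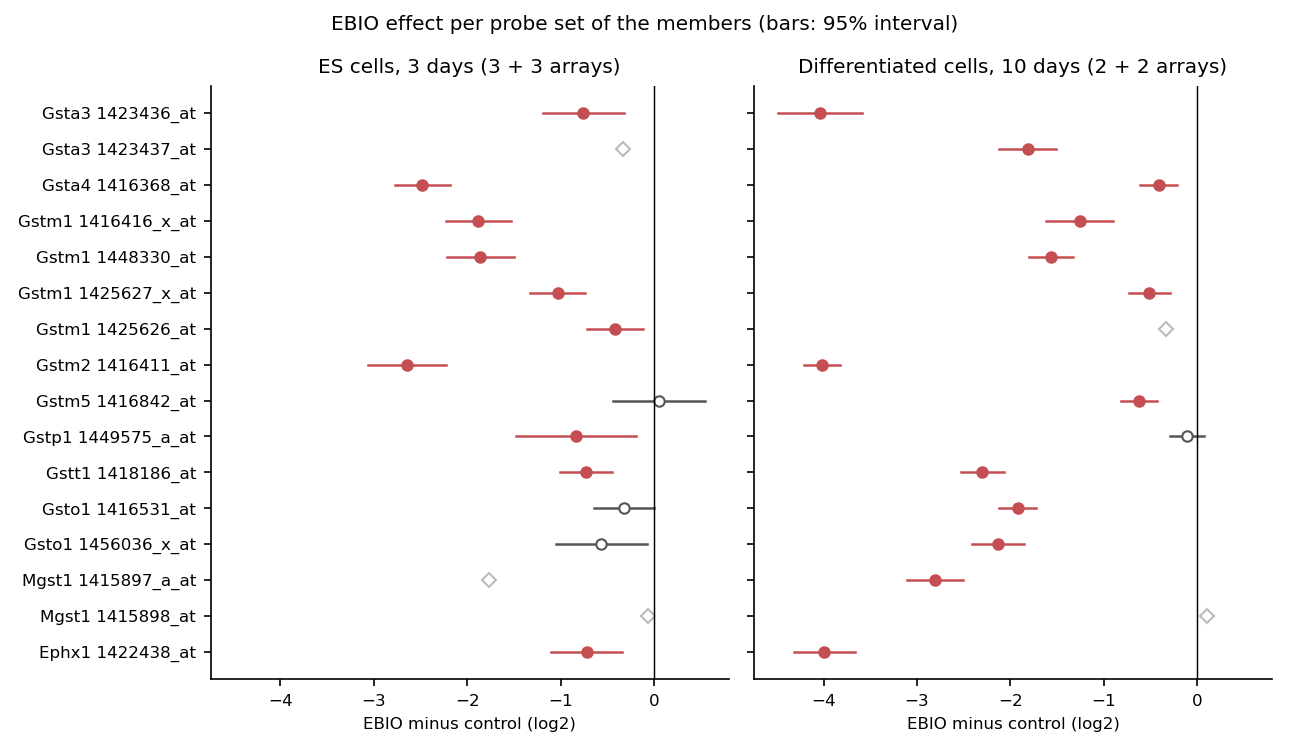
EBIO minus control on the log2 scale (horizontal axis) for each probe set of the members, with 95% intervals, in ES cells (left) and differentiated cells (right). Filled points passed the adjusted p threshold, open circles did not, and grey diamonds were too dim to be tested; the intervals cross 0 for Gstm5 in ES cells and Gstp1 in differentiated cells.

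Levels at the 2 stages were compared only by rank within each array, because the ES arrays and the differentiated arrays had been normalized as separate sets. In untreated cells Mgst1 averaged a percentile of 99.3 in differentiated cells and 61.4 in ES cells, and Ephx1 averaged 95.4 and 61.6 at the same stages. Gsta3 was at 80.1 in untreated differentiated cells and 59.3 in untreated ES cells, and Gstt1 at 69.5 and 61.0. Gsta4 and Gstm1 ranked higher in untreated ES cells, at 99.1 and 92.3, than in untreated differentiated cells, at 95.2 and 82.0. Gstm2, at 80.3 in untreated differentiated cells and 82.9 in untreated ES cells, and Gstp1, at 98.1 and 96.2, ranked alike at both stages. With EBIO, differentiated cells had Ephx1 at 65.0, Gsta3 at 34.3, Gstm2 at 35.2 and Gstt1 at 44.6, while Mgst1, at 91.3, and Gstp1, at 97.9, kept high ranks.

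Whether the EBIO effect differed between the stages was tested as the difference of the 2 effects (differentiated minus ES) on all 10 arrays. A constant shift between array sets cancels in it, but other differences between the separately normalized sets do not. Of the 10 members 5 were called lower, that is with a more negative EBIO effect in differentiated cells, and 1 was called higher, against 24.3% and 19.5% of all tested genes. Of these 5, all but Gsto1 were below the median on some EBIO arrays, and Gsta3 and Gstt1 were below it on every EBIO array of both stages. Those calls add no support: among the 5 members above the median on all 10 arrays, 1 (Gsto1) was called lower and 1 (Gsta4) higher. The difference of effects was -3.28 for Gsta3 (SE 0.30, adjusted p = 1.04e-05) and -3.27 for Ephx1 (SE 0.24, adjusted p = 2.13e-06). It was -1.60 for Gsto1 (adjusted p = 5.14e-05), -1.57 for Gstt1 (adjusted p = 2.54e-05) and -1.37 for Gstm2 (adjusted p = 0.00110). Gsta4 was the 1 member called in the other direction, at 2.07 (SE 0.17, adjusted p = 4.26e-06), its EBIO effect being larger in ES cells. For Gsta3, Gstt1 and Ephx1 the ES effect was measured near the array median, where RMA understates it, so the size of the difference between stages is uncertain. It also depended on the scaling. After quantile normalization of all 10 arrays the ES and differentiated effects lay closer for Gstm2 (-2.77 and -3.47), Gstt1 (-0.89 and -1.79) and Gsta3 (-0.93 and -3.47). They did not for Ephx1 (-0.86 and -4.19) and Gsto1 (-0.36 and -2.09), and Gsta4 had -2.39 and -0.45. Gstm1 (0.62, adjusted p = 0.0570), Gstm5 (-0.68, adjusted p = 0.0913) and Gstp1 (0.72, adjusted p = 0.167) were not called. A block on replicate number brought all of them past the threshold, with adjusted p-values of 0.0448, 0.0122 and 0.00761 in that order. This block also pairs the differentiated arrays, where the labels do not say what a number shares and same-numbered arrays correlated at -0.11. Mgst1 was not called (-1.04, adjusted p = 0.224), but without untreated ES replicate 3 its difference was -1.64 (adjusted p = 0.000436).

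Genes of the same families outside the members gave a mixed picture. The counts of this and the following lists stand beside 20.5% of all tested genes called lower and 22.8% called higher in ES cells. In differentiated cells these shares were 31.8% and 31.9%. Several counts lie near or below them, and the lists too were chosen with earlier results known. Of 9 other cytosolic glutathione transferases tested in ES cells, 5 were lower with EBIO and 1 was higher, with a median difference of -0.51; of 9 tested in differentiated cells, 7 were lower and 0 higher, with a median of -0.38. Of those 7, 3 (Gstt2, Gstt3 and Hpgds) had no EBIO array above the median, so they passed the filter through the untreated arrays and their differences are understated. The same was true of 1 of the 5 lower in ES cells, whose difference was itself the median of -0.51. In the lists that follow the same holds for Alox5ap in ES cells and for Mgst2, Ephx2, Gpx7, Abcc3, Sult1a1 and Nat2 in differentiated cells. Gstt2, a theta class gene, had the largest difference in ES cells, with a mean of 4.66 with EBIO and 7.85 without (-3.19, adjusted p = 3.17e-05), and was also lower in differentiated cells (-1.21, adjusted p = 0.000361). Hpgds, which makes prostaglandin D2 and belongs to the sigma class, averaged 4.23 with EBIO and 7.76 without in differentiated cells (-3.53, adjusted p = 4.07e-05). Gstt3 averaged 4.34 with EBIO and 7.05 without at that stage (-2.71, adjusted p = 1.35e-05). Gstcd, which carries a transferase-like C-terminal domain, was the gene called higher in ES cells (0.94, adjusted p = 0.00138) and was lower in differentiated cells (-0.38, adjusted p = 0.00949).

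Among the relatives of Mgst1, 1 of 4 tested genes was lower and 1 higher in ES cells, and 3 of 5 were lower and 1 higher in differentiated cells. Alox5ap, the helper protein of 5-lipoxygenase, was lower at both stages (-1.57, adjusted p = 0.00100, in ES cells and -1.95, adjusted p = 0.000130, in differentiated cells). Mgst2, which can make leukotriene C4, was lower in differentiated cells (-3.09, adjusted p = 8.60e-05). Mgst3, a transferase and peroxidase of the same family, was higher with EBIO at both stages, with 9.08 ± 0.13 against 8.50 ± 0.22 in untreated ES cells (n = 3 each; 0.58, adjusted p = 0.0156) and 10.63 ± 0.08 against 9.81 ± 0.10 in untreated differentiated cells (n = 2 each; 0.82, adjusted p = 0.000653). Of the other epoxide hydrolases, the soluble enzyme Ephx2 was lower at both stages. Its mean was 4.58 with EBIO and 8.12 without in ES cells (-3.53, adjusted p = 1.59e-05), and 4.67 with EBIO and 6.17 without in differentiated cells (-1.50, adjusted p = 3.47e-05). The measured difference of Ephx2 was larger in ES cells (differentiated minus ES effect 2.03, adjusted p = 0.000465) and that of Ephx1 in differentiated cells. Each smaller difference started from an untreated level near the array median (6.17 for Ephx2 in differentiated cells, 5.20 for Ephx1 in ES cells). Little fall can be measured from there, so this contrast is no support for opposite stage dependence.

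**Figure D4:**
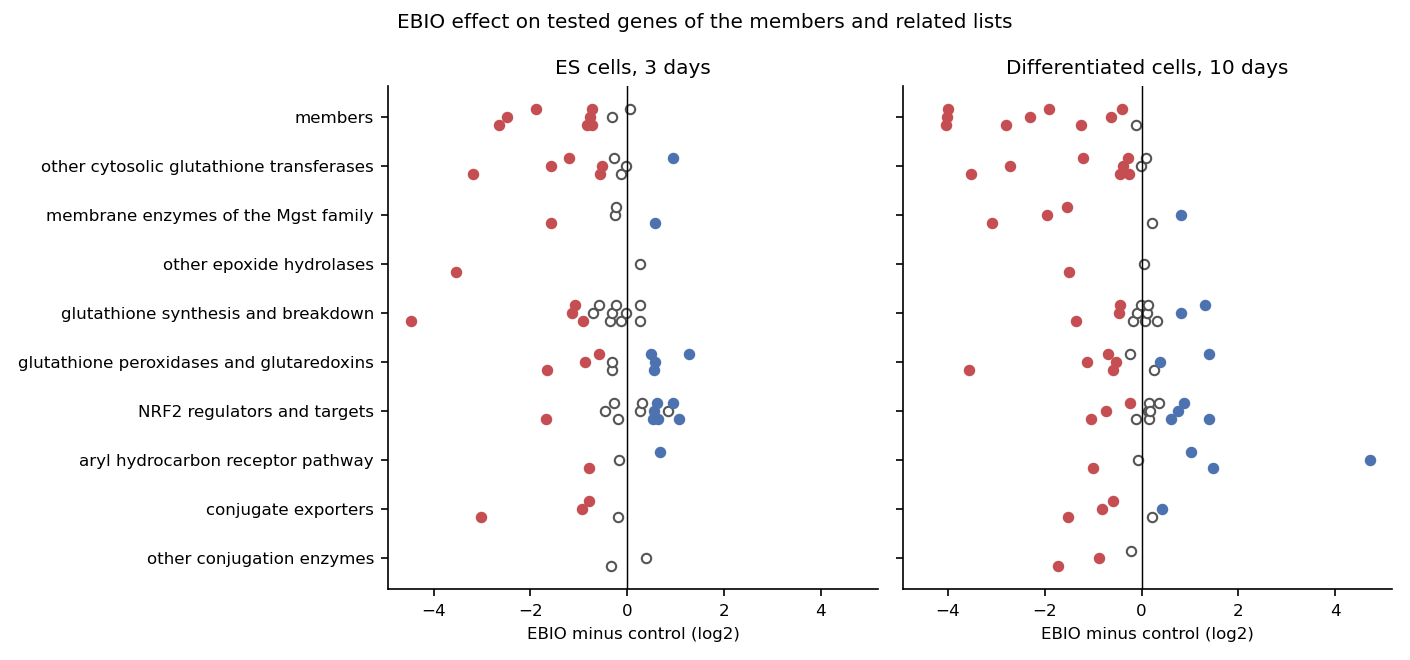
EBIO minus control on the log2 scale (horizontal axis) for every tested gene of the members and of the related lists (vertical axis), in ES cells (left) and differentiated cells (right). Red points were called lower, blue points higher and open points neither. The members show 7 lower of 9 tested in ES cells and 9 lower of 10 in differentiated cells, with no blue point. The NRF2 list has 6 higher and 1 lower in ES cells. Among all tested genes 20.5% were called lower and 22.8% higher in ES cells, and 31.8% and 31.9% in differentiated cells.

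The genes that supply glutathione were counted next. Of 13 tested genes of glutathione synthesis and breakdown, 4 were lower and 0 higher in ES cells, and of 12 tested in differentiated cells, 3 were lower and 2 higher. Cth, which makes cysteine from cystathionine, had the largest difference in ES cells (6.47 ± 0.55 with EBIO and 10.94 ± 0.27 without, n = 3 each; -4.47, adjusted p = 1.09e-05), and Cbs, the enzyme before it, was lower too (-1.13, adjusted p = 0.000409). Gclc, the catalytic subunit of the rate-limiting enzyme of glutathione synthesis, was higher in differentiated cells (1.31, adjusted p = 0.000113), as was Oplah, which recycles oxoproline (0.82, adjusted p = 0.000669). Gclm, the modifier subunit of the same enzyme as Gclc, was lower there (-0.46, adjusted p = 0.0100), as was Chac1, which degrades glutathione (-1.36, adjusted p = 0.000395).

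Of 9 tested glutathione peroxidases and glutaredoxins, 4 were higher and 3 lower in ES cells, and 2 were higher and 5 lower in differentiated cells. The secreted peroxidase Gpx3 was higher with EBIO at both stages (0.58, adjusted p = 0.00558, in ES cells and 1.40, adjusted p = 4.31e-05, in differentiated cells). Gpx7, a peroxidase of the endoplasmic reticulum, was lower at both (-1.65, adjusted p = 0.00120, and -3.56, adjusted p = 4.16e-06). Gpx8, of the same compartment, was higher in ES cells (1.28, adjusted p = 0.000370) and lower in differentiated cells (-0.54, adjusted p = 0.00175). Gpx4, which reduces lipid hydroperoxides, was lower in ES cells (-0.87, adjusted p = 0.00218). In differentiated cells Gpx2 was lower (-1.13, adjusted p = 0.000198) and Glrx5, which serves iron-sulphur cluster assembly, was higher (0.38, adjusted p = 0.00576).

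The regulators known to act on these genes, and their usual targets, moved in both directions. Of 13 tested NRF2 regulators and targets, 6 were higher and 1 lower in ES cells, and 4 were higher and 3 lower in differentiated cells. Nqo1, a quinone reductase and a common NRF2 target, was lower in ES cells (5.65 ± 0.43 with EBIO and 7.32 ± 0.47 without, n = 3 each; -1.67, adjusted p = 0.00177) and higher in differentiated cells (0.76, adjusted p = 0.000753). Hmox1, which degrades haem, was higher in ES cells (0.95, adjusted p = 0.00258) and lower in differentiated cells (-0.74, adjusted p = 0.000461), and so was Maff, a partner of NRF2 (1.08, adjusted p = 0.00227, and -1.05, adjusted p = 0.000714). In differentiated cells the sulfiredoxin gene Srxn1 (1.39, adjusted p = 6.87e-05) and the thioredoxin reductase gene Txnrd1 (0.87, adjusted p = 0.000621) were higher.

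Of the aryl hydrocarbon receptor pathway 3 genes were tested in ES cells, of which 1 was higher and 1 lower, and 5 in differentiated cells, of which 3 were higher and 1 lower. Cyp1a1, a cytochrome P450 and the usual target of the receptor, averaged 8.95 ± 0.26 with EBIO and 4.24 ± 0.19 without in differentiated cells (n = 2 each), a difference of 4.72 (adjusted p = 8.81e-06). No untreated array was above the median, so Cyp1a1 passed the filter through the EBIO arrays and its difference is understated. In ES cells it was at 3.62 with EBIO and 3.58 without and was not tested. Cyp1b1 (1.47, adjusted p = 0.000116) and Tiparp (1.03, adjusted p = 0.000218), other targets of the receptor, were also higher in differentiated cells, while the receptor gene Ahr was lower (-1.01, adjusted p = 0.000252). In ES cells Ahr was higher (0.68, adjusted p = 0.0419) and Tiparp lower (-0.79, adjusted p = 0.00192).

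Of the pumps that export glutathione conjugates and related compounds, 3 of 4 tested were lower in ES cells and 0 higher, and of 5 tested in differentiated cells 3 were lower and 1 higher. Abcc4 averaged 7.16 ± 0.23 with EBIO and 10.18 ± 0.15 without in ES cells (n = 3 each; -3.03, adjusted p = 5.94e-06) and was higher in differentiated cells (0.43, adjusted p = 0.00340). Abcg2 was lower at both stages (-0.93, adjusted p = 0.000716, and -0.81, adjusted p = 0.000383), and Abcc3 was lower in differentiated cells (-1.53, adjusted p = 8.14e-05). Of other conjugation enzymes 0 of 2 tested were called in ES cells, and 2 of 3 were lower in differentiated cells, the sulfotransferase gene Sult1a1 (-1.73, adjusted p = 0.000227) and the acetyltransferase gene Nat2 (-0.88, adjusted p = 0.0149).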

How the data were processed

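The deposited values are on the log2 scale. The authors used RMA per the submitters' processing notes, and BioConductor per the labels; versions are not given in the sources used here. RMA corrects background, gives the arrays processed together the same distribution and combines probes into probe sets. Array quantiles differed on average by no more than 0.0931 among the 6 ES arrays and 0.0497 among the 4 differentiated arrays, but by 0.910 or more across stages, so each stage had been normalized on its own. Array medians were 4.52 to 4.55 with EBIO and 4.55 to 4.62 without in ES cells, and 5.59 to 5.62 and 5.66 to 5.68 in differentiated cells. Read depth does not apply to arrays, and their number limits the precision.

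Of 45101 probe sets, 64 controls were left out. By the platform's annotation, 34958 carried a single symbol, 932 carried several and 9211 carried none, and 34754 symbols were updated through a RefSeq gene table. A probe set entered the test if the number of arrays with a value above the array median (percentile 50) was no smaller than the smallest group of the fit. The deposited log2 values were fitted in limma 3.58.1 under R 4.3.3 with empirical Bayes moderation, and p-values were adjusted by Benjamini-Hochberg over all probe sets tested, with a threshold of 0.05. The code was tested on simulated data. The brightest probe set over the 10 arrays stood for a gene. All members are named, and from each related list at most the 2 called genes with the largest rise and the 2 with the largest fall per stage. Members and lists were chosen with earlier results of these data known. Listed genes without a probe set of their own are not analysed here.

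The replicate numbers pair the ES arrays by passage, and the deviations of same-numbered arrays from their group means correlated at 0.35, 0.22 and 0.64. In differentiated cells, where the labels do not say what a number shares, the correlation was -0.11. Alternatives covered the filter, the unit of the test, the normalization, the variance model, the fit of 4 groups together, the replicate block and leaving out each array in turn.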

Additional observations from a re-analysis of the deposited data

Results flagged for a closer look

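The results listed here had an EBIO effect that differed between the stages by limma's test of the difference itself (differentiated minus ES, on the log2 scale). Among the members the difference was -3.28 for Gsta3, -3.27 for Ephx1, -1.60 for Gsto1, -1.57 for Gstt1, -1.37 for Gstm2 and 2.07 for Gsta4. Among the named relatives it was -3.52 for Hpgds, -3.05 for Gstt3, -2.92 for Mgst2, -1.32 for Gstcd, 1.12 for Gstm3, 1.98 for Gstt2 and 2.03 for Ephx2. For the transcripts of glutathione synthesis it was 0.94 for Oplah, 1.05 for Gclc, 1.24 for Cbs and 3.88 for Cth, and for the peroxidases -1.91 for Gpx7, -1.81 for Gpx8 and 0.81 for Gpx3. For the NRF2 list it was -2.12 for Maff, -1.69 for Hmox1 and 2.44 for Nqo1. For the aryl hydrocarbon receptor list it was -1.69 for Ahr, 1.22 for Cyp1b1, 1.82 for Tiparp and 4.68 for Cyp1a1. For exporters and other conjugation enzymes it was -1.60 for Sult1a1, -1.32 for Abcc3 and 3.46 for Abcc4. Hpgds, Gstt3, Mgst2, Cyp1a1, Cyp1b1, Sult1a1 and Abcc3 were above the median on no ES array, and Cth was too dim to be tested in differentiated cells. Their differences mainly restate the effect at the stage where they were bright, so these calls add no support. The same limit holds for Gsta3, Ephx1, Gstt1 and Gstm2, as given above, and for Gstt2, Ephx2 and Gpx7, which had no EBIO array above the median in differentiated cells. Groups of 2 or 3 arrays are too small for a check of single outlying arrays.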

How the results depend on the processing

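The 9 members called lower in differentiated cells were 8 with a filter at the 75th percentile and 9 under each of the other alternatives, and 0 members were called higher at either stage under any of them. In ES cells 7 members were called lower, 4 with a filter at the 75th percentile (where fewer probe sets are tested) and 6 to 8 when 1 array was left out. The counts with an array left out include Mgst1 where it was called, while Gstp1 lost its call in 4 of these settings. Mgst1, untested in ES cells, was tested and called lower without a filter and in 4 of the settings with an array left out (adjusted p = 0.00454 to 0.0453), but with no EBIO array above the median, so these calls add no support. Gstp1 in ES cells also lost its call after quantile normalization of all 10 arrays (adjusted p = 0.0554), and Gsto1 gained one with 4 groups fitted together (adjusted p = 0.0431). The small difference of Gstm5 in ES cells turned to -0.036 after quantile normalization, to -0.15 without untreated replicate 1 and to -0.09 without EBIO replicate 2, with a range of -0.15 to 0.22 over all arrays left out, and was not called in these settings. Members with a higher difference of effects numbered 1, but 2 with the 75th percentile filter, with 1 probe set a gene, and without untreated ES replicate 3 or untreated differentiated replicate 2 (1 to 2 over all arrays left out), and 3 with the replicate block. Those lower numbered 5, or 4 with the 75th percentile filter, 6 with the replicate block and 5 to 6 with arrays left out. Over all single members and alternatives, 400 kept direction and call, 11 gained a call, 6 lost it and 3 turned.

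In the reported fit, 17.6% of 23180 tested probe sets and 20.5% of 12096 tested genes were called lower in ES cells. Counts over all probe sets moved chiefly with the unit of the test, since fewer genes than probe sets are tested. In ES cells 5063 were higher and 4091 lower, against 2846 and 2567 with 1 probe set a gene and 2699 and 2476 with probe sets averaged per gene; leaving out an array gave 4144 to 5532 higher and 3057 to 4611 lower. In differentiated cells 7945 were higher and 6514 lower, against 4110 and 4022, and 4034 and 3563, under the same choices, 5023 and 3838 with the 75th percentile filter, and 5089 higher with 4 groups fitted together; leaving out an array gave 6037 to 6826 and 5512 to 5665. For the difference of effects 5102 were higher and 5785 lower, against 2808 and 3428, and 2901 and 3131; leaving out an array gave 3648 to 6038 and 4765 to 6449. With the replicate block the counts were 6089 and 5135 in ES cells and 7290 and 6094 in differentiated cells, with 7 and 9 members lower, and it changed no other member call. Same-numbered differentiated arrays correlated below 0, so the crossed replicate block was added after the data were seen; it gave 7838 and 6427 probe sets and 9 members lower. With so few arrays, and with dim probe sets compressed by RMA, small differences of dim members are the least certain.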
